A study of Mus musculus with 10 samples.

Results

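The immune checkpoint and costimulation genes examined here are 10 genes of the surface signals that switch T cells on and off: Cd274, Pdcd1lg2, Pdcd1, Lag3, Tigit, Ctla4, Cd80, Cd86, Cd28 and Icos. They were taken by symbol from a table of 20813 genes, and all 10 were found and passed the minimum mean of 10 normalized counts, as did 15276 genes in all. They were read in 10 RNA-seq samples of mouse spleens filled with a transplanted T-ALL (acute lymphoblastic leukemia of T cells, a cancer of immature T cells). All samples came from C57BL/6 material and from leukemias with a conditional Sirt1 allele, injected by vein into recipients irradiated below the lethal dose. The 5 labelled Sirt1-deleted samples came from recipients given tamoxifen in corn oil (3 mg per mouse, into the peritoneum), and the 5 control samples from recipients given corn oil alone, so deletion and drug cannot be told apart. Which Cre drives the deletion, which oncogene started the leukemias, how many primary leukemias were transplanted and the age of the mice are not given in the sources used here, and the p-values measure the spread between these spleens only.

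T cells respond when the antigen receptor and a costimulatory receptor are engaged together. CD28, carried by T cells, binds CD80 and CD86 on antigen-presenting cells such as dendritic cells, macrophages and B cells. CTLA-4 binds the same 2 ligands and restrains the response, while ICOS is a costimulatory relative of CD28 that appears on activated T cells and binds ICOS ligand. PD-1 (Pdcd1) is an inhibitory receptor with the ligands PD-L1 (Cd274), which interferons induce in many cell types, and PD-L2 (Pdcd1lg2), which is more restricted. LAG-3 and TIGIT are further inhibitory receptors of T and NK cells, and interactions of this kind are the targets of checkpoint-blocking antibodies.

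Of the 10 genes, 8 passed the test between groups (adjusted p under 0.05 by limma and the Benjamini-Hochberg method over all tested genes). The ligand genes Cd80, Cd86 and Cd274 rose, and the receptor genes Cd28, Pdcd1, Icos and Ctla4 fell together with the ligand gene Pdcd1lg2. Lag3 and Tigit did not pass. Over all tested genes 36.1% passed, 16.8% as higher and 19.4% as lower. The median log2 difference of the 10 genes was -0.46, against -0.00014 over all tested genes. Values of the groups did not overlap for 6 of the 10 genes, where 24.0% of tested genes showed no overlap. Without labelled Sirt1-deleted replicates 10 and 11, which an earlier reading of these data placed nearest to the controls, the counts were again 3 higher and 5 lower. Leaving out samples chosen as nearest to the controls favours a wider gap. Among the 8 genes called here, however, replicate 10 was nearest for 5, replicate 8 for 2 and replicate 11 for 1. Without replicates 10 and 11 the log2 differences of Pdcd1lg2 (-0.753 from -0.789) and Pdcd1 (-0.400 from -0.416) narrowed, and those of the other genes called widened. Calls over all tested genes rose from 5518 to 6937, so the unchanged counts are no check of stability. Upper-quartile rescaling moved all log2 differences up by about the same amount (median over tested genes 0.058) and turned the split of all calls from 46.4% to 58.2% higher, but no gene of the 10 changed direction under any scaling run. In whole spleens, fewer cells that carry a transcript and less transcript per cell cannot be told apart.

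**Figure D1:**
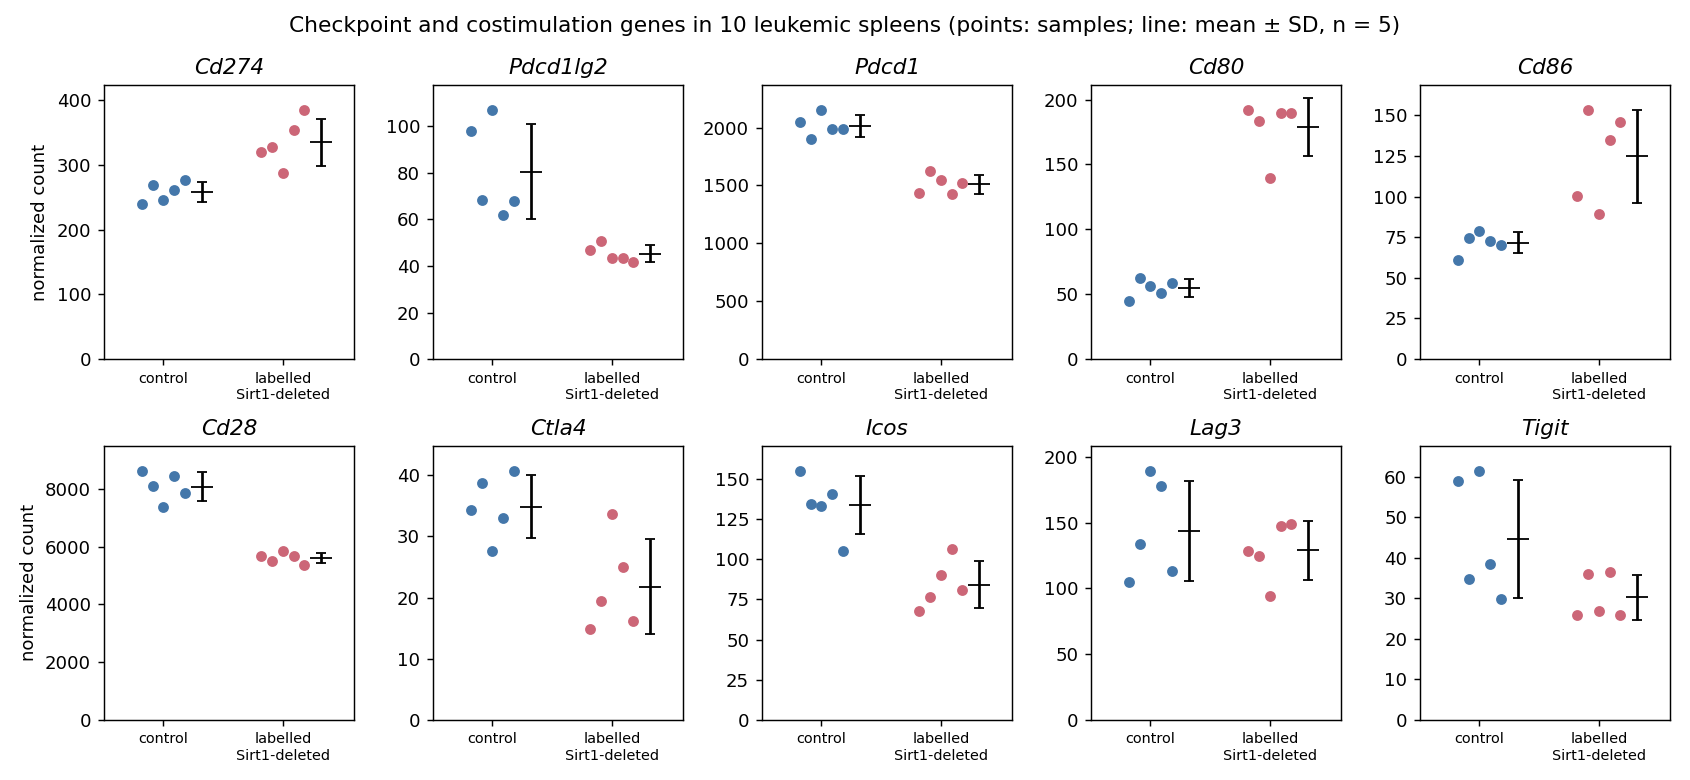
Normalized counts (vertical axes, from 0) of the 10 genes in each sample, with controls at the left and labelled Sirt1-deleted samples at the right of each panel; points are samples and bars are the mean ± SD (n = 5). Cd274, Cd80 and Cd86 are higher and Pdcd1lg2, Pdcd1 and Cd28 lower with no overlap, whereas the groups overlap for Ctla4, Icos, Lag3 and Tigit.

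Sirt1, the targeted gene, measured 1873 ± 146 normalized counts in the labelled Sirt1-deleted group against 1810 ± 62.5 in controls (SD, n = 5 per group, with a log2 difference of 0.05, SE 0.06; limma adjusted p = 0.568). The gene-level value did not separate the groups. Which exons the allele removes is not given in the sources used here, so a gene-level value does not check the deletion, and the group is named by its label throughout. Deposited totals lay between 33660245 and 34471964 normalized counts per sample. Of the T-ALL markers, Cd3e measured 11998 ± 1695 against 12238 ± 483 (SD, n = 5 per group; limma adjusted p = 0.743). The summed level of 14 T lineage markers was 230448 to 255289 in the labelled Sirt1-deleted group against 228970 to 242290 in controls, so it overlapped.

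The PD-1 ligands moved in opposite directions although their genes are neighbours. Cd274 (PD-L1, ENSMUSG00000016496.7) lies at chr19:29367455-29388095 on the plus strand and Pdcd1lg2 (PD-L2, ENSMUSG00000016498.10) at chr19:29410919-29471161 on the same strand (GRCm38), 22.8 kb apart with 0 protein-coding genes between them. Cd274 overlaps the annotated locus AC119228.1 and Pdcd1lg2 overlaps A930007I19Rik, so reads of these loci could be shared. The sequences before their starts are shown because the pair stands side by side and differed in sign, together with that of Cd80, which had the largest change of the 10. Each is the 250 bases upstream of a RefSeq start (GRCm38.p6), written 5′ to 3′ on the strand of the gene, with motif matches in capitals.
Cd274, chr19:29367188-29367437: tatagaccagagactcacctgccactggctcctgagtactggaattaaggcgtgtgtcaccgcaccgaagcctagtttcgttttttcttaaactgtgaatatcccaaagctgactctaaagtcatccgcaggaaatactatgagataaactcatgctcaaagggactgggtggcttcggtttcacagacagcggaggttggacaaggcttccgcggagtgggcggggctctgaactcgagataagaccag
Pdcd1lg2, chr19:29410669-29410918: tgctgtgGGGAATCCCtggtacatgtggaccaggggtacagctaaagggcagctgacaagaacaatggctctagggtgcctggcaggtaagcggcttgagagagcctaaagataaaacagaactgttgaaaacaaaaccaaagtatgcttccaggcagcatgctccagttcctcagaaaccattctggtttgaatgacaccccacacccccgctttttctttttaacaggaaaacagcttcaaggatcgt
Cd80, chr16:38458683-38458932: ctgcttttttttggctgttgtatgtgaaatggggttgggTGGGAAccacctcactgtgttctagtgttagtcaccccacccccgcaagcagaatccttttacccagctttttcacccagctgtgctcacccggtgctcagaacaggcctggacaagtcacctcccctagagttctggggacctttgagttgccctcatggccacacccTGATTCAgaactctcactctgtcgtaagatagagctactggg

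RefSeq sequences were matched for 6 of the 10 genes (Cd274, Pdcd1lg2, Pdcd1, Tigit, Ctla4 and Cd80), and Lag3, Cd86, Cd28 and Icos were not matched. Both strands were searched for 5 motifs: an interferon-stimulated response element-like motif (a pair of GAAA runs separated by any 2 bases), a gamma-activated site TTCNNNGAA, an AP-1 site TGANTCA, an NF-kB-like GGGAANNCC and an RBPJ site TGGGAA. NF-kB-like and RBPJ matches can overlap each other. Pdcd1lg2 held an NF-kB-like match 243 to 235 bases before the start, and 4.99% of the 32851 windows of this length in the table held one. Cd80 held an AP-1 match 42 to 36 bases before the start, found in 6.75% of windows, and an RBPJ match 211 to 206 bases before it, found in 21.6% of windows. The other 4 windows, that of Cd274 included, held none of these letters, and none of the 6 held the response element-like motif (2.98% of windows) or the gamma-activated site (7.02%). Cd80 has several annotated starts, and the window belongs to a single start. That window, chr16:38458683-38458932, lies within the annotated gene, which begins at chr16:38455561. Ctla4 was also read at a single start. Its window, chr1:60908775-60909024, lies within the annotated gene, which begins at chr1:60887000.

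Cd274 measured 320.4, 328, 288, 354 and 386 normalized counts in labelled Sirt1-deleted replicates 7, 8, 10, 11 and 12, and 239, 269, 246, 262 and 276 in control replicates 2 to 6. Each labelled Sirt1-deleted sample lay above each control, with replicate 10 closest. The means were 335 ± 36.7 and 259 ± 15.7 (SD, n = 5 per group), a ratio of 1.30 and a log2 difference of 0.37 (SE 0.09, 95% interval 0.16 to 0.57; limma adjusted p = 0.0104). The exact two-sided permutation p was 0.00794, the smallest that 5 against 5 samples can give, and it was the same for the other 5 genes of the 10 whose groups did not overlap. The rise of PD-L1 message was the smallest of the 3 rises and did not pass at an adjusted p under 0.01.

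Pdcd1lg2 measured 46.8, 50.8, 43.3, 43.6 and 41.6 normalized counts in labelled Sirt1-deleted replicates 7, 8, 10, 11 and 12, against 97.9, 68.2, 107, 61.9 and 67.8 in control replicates 2 to 6. The labelled Sirt1-deleted samples were tightly grouped, and the controls spread widely, with replicates 2 and 4 well above the others. The means were 45.2 ± 3.67 and 80.6 ± 20.5 (SD, n = 5 per group, with a log2 difference of -0.79, SE 0.18, 95% interval -1.19 to -0.39; limma adjusted p = 0.00633). Within a sample, the ratio of Cd274 to Pdcd1lg2 counts was therefore 6.45 to 9.28 in the labelled Sirt1-deleted group against 2.29 to 4.24 in controls. This ratio, like the other within-sample ratios below, was chosen with the values in view and is a description.

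Pdcd1, which encodes the receptor of both ligands (ENSMUSG00000026285.7, chr1:94038305-94052553, minus strand), was expressed at 1435, 1621, 1544, 1424 and 1523 normalized counts in labelled Sirt1-deleted replicates 7, 8, 10, 11 and 12. Control replicates 2 to 6 measured 2044, 1897, 2153, 1984 and 1992. The groups did not overlap and both were tight, with a coefficient of variation of 5.41% and 4.66%. PD-1 message fell by 0.42 on the log2 scale (SE 0.05, 95% interval -0.53 to -0.30; limma adjusted p = 4.42e-04), which left it at 74.95% of the control mean. Set against the T cell gene Cd3e in the same sample, Pdcd1 was 0.108 to 0.154 in the labelled Sirt1-deleted group against 0.151 to 0.185 in controls, which overlapped slightly.

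**Figure D2:**
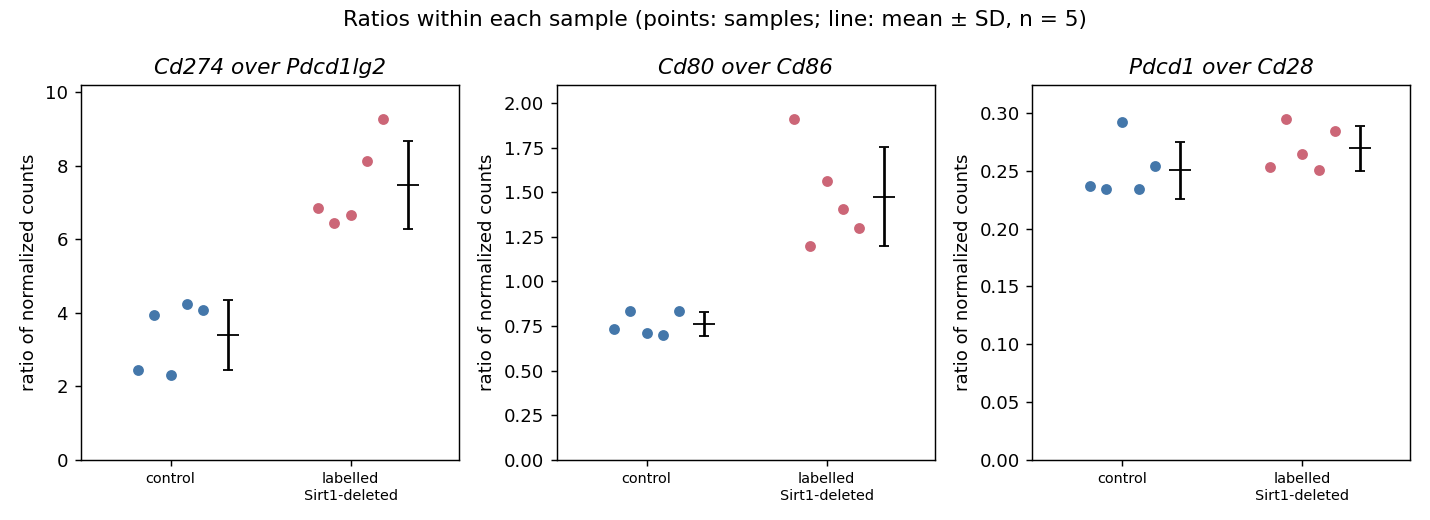
Ratios of normalized counts within each sample (vertical axes, from 0) for Cd274 over Pdcd1lg2, Cd80 over Cd86 and Pdcd1 over Cd28, with controls left and labelled Sirt1-deleted samples right; points are samples and bars are the mean ± SD (n = 5). The ligand ratios do not overlap between the groups, 6.45 to 9.28 against 2.29 to 4.24 and 1.20 to 1.91 against 0.702 to 0.837, whereas the receptor ratio overlaps, 0.251 to 0.295 against 0.234 to 0.292.

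Among the ligands of CD28 and CTLA-4, Cd80 showed the largest change of the 10 genes. Cd80 (B7-1, ENSMUSG00000075122.5, chr16:38455561-38496335, plus strand) measured 192, 184, 139, 189.7 and 189.6 normalized counts in labelled Sirt1-deleted replicates 7, 8, 10, 11 and 12. The controls measured 44.7, 62.6, 56.0, 51.2 and 59.0 in replicates 2 to 6. Of the labelled Sirt1-deleted samples 4 were nearly equal and replicate 10 stood below them, yet still above every control. The means were 179 ± 22.4 and 54.7 ± 6.97 (SD, n = 5 per group), a ratio of 3.27 and a log2 difference of 1.69 (SE 0.14, 95% interval 1.38 to 2.001; limma adjusted p = 3.52e-05). A larger rise than that of Cd80 was rare in the table, since its log2 difference lay above that of 98.8% of the tested genes.

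Cd86 (B7-2, ENSMUSG00000022901.13, chr16:36603869-36666081, minus strand) rose less than its partner. It measured 101, 153, 89.0, 135 and 146 normalized counts in labelled Sirt1-deleted replicates 7, 8, 10, 11 and 12, and 61.2, 74.8, 78.9, 72.9 and 70.5 in control replicates 2 to 6. All 5 labelled Sirt1-deleted values were above the controls, but they spread more, with a coefficient of variation of 22.8% against 9.23%. The log2 difference was 0.76 (SE 0.17, 95% interval 0.40 to 1.13; limma adjusted p = 0.00509). The ratio of Cd80 to Cd86 counts was 1.20 to 1.91 in the labelled Sirt1-deleted group against 0.702 to 0.837 in controls, with no overlap.

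CD80 and CD86 are proteins of antigen-presenting cells. Among markers of such cells, most of those of macrophages and monocytes were higher too, and most of those of dendritic cells and B cells did not pass. Of 15 tested macrophage and monocyte markers 13 passed, each of them as higher, where 16.8% of all tested genes passed as higher. Their summed level was 6982 to 12820 normalized counts in the labelled Sirt1-deleted samples against 3325 to 3787 in controls. Csf1r, the receptor that macrophages need for survival, rose from 428 ± 49.2 to 581 ± 99.1 (SD, n = 5 per group; limma adjusted p = 0.0163), and Itgax, the integrin CD11c of dendritic cells and macrophages, rose from 50.1 ± 17.8 to 89.3 ± 19.99 (limma adjusted p = 0.0179). Both calls were lost with the exact rank-sum test, and that of Itgax also after quantile normalization. The macrophage gene Adgre1 measured 150 ± 31.2 against 114 ± 32.8 and did not pass (limma adjusted p = 0.150). Of 10 tested dendritic cell markers 4 passed, each of them as higher. That share is near the 36.1% of all tested genes, and the count fell to 2 without labelled Sirt1-deleted replicate 12 or control replicate 2 and to 1 after quantile normalization or with the exact rank-sum test. The summed level of this list was 6326 to 9179 against 4253 to 6009. It came mostly from Bst2 and Ccr9, so it says little of the other genes of the list. The dendritic cell factor Zbtb46 measured 124 ± 29.1 against 109 ± 13.4 and did not pass (limma adjusted p = 0.455). Of 10 tested B cell markers 1 passed, as higher (3 without labelled Sirt1-deleted replicate 10 and 2 without control replicate 3); the summed B cell level, mostly Ighm, was 19388 to 26881 against 18019 to 21304 and overlapped. Neutrophil markers, of which 13 of 14 passed, each as higher, summed to 28975 to 99982 against 9166 to 12659, with Ly6g at 223 ± 79.5 against 20.9 ± 8.81 (SD, n = 5 per group; limma adjusted p = 1.15e-04). No marker measured in these lists was at 0 in all samples, and Cd209a was at 0 in some.

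Measured against the macrophage gene Cd68 in the same sample, Cd80 was 0.483 to 0.591 in the labelled Sirt1-deleted group against 0.207 to 0.303 in controls, so this ratio still separated the groups. Measured in the same way, Cd86 was 0.295 to 0.483 against 0.284 to 0.380 and overlapped. Against Csf1r, Cd80 was 0.249 to 0.419 against 0.101 to 0.161, and Cd86 was 0.159 to 0.298 against 0.139 to 0.227. In labelled Sirt1-deleted replicate 10, Cd80, Cd86 and Cd274 were below their values in replicates 7, 8, 11 and 12. The same held for summed markers of macrophages and monocytes (6982), dendritic cells (6326), neutrophils (28975), T lineage (230448) and NK cells (12672). It did not hold for B cell markers (20509) or regulatory T cell markers (1331). The order of the other samples was mixed. Replicate 8 had the highest macrophage and monocyte sum (12820) and Cd86 (153) of the group. Its Cd80 (184) was below that of replicates 7, 11 and 12. Replicate 12 had the highest Cd274 (386) of the group. Its macrophage and monocyte sum (7676) was below those of replicates 7, 8 and 11. The part of macrophages, monocytes, dendritic cells and neutrophils in the changes of Cd80, Cd86 and Cd274 was not tested.

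**Figure D3:**
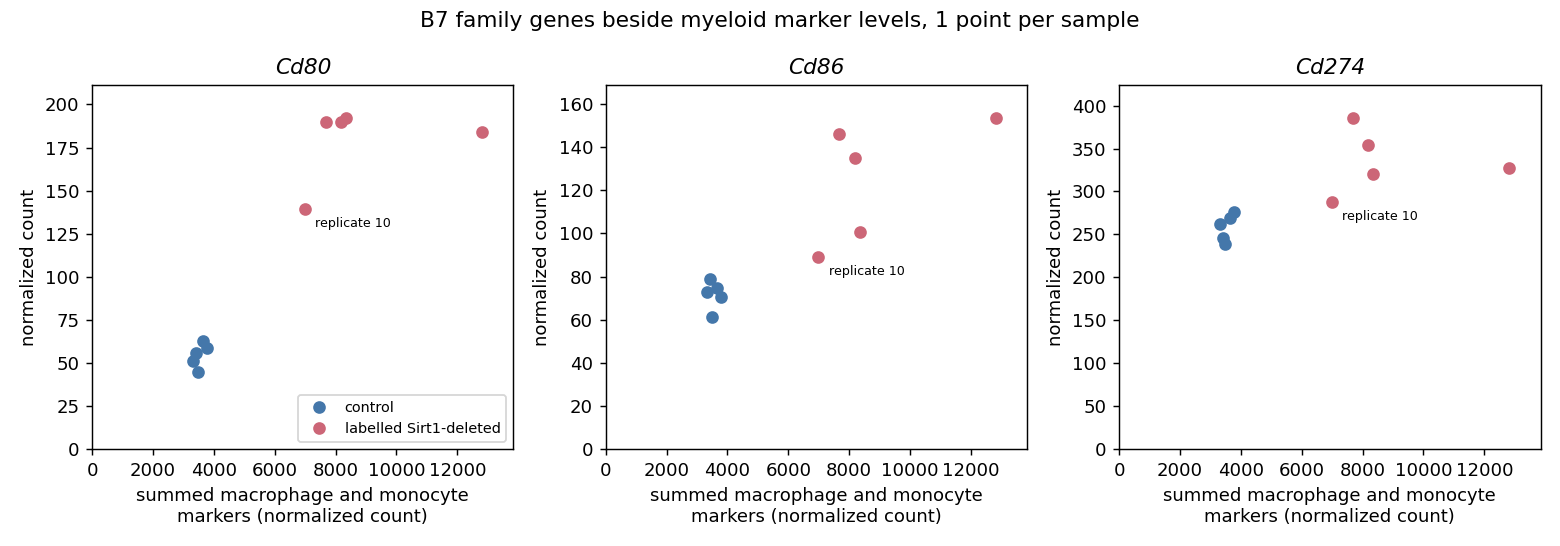
Normalized counts of Cd80, Cd86 and Cd274 (vertical axes, from 0) against the summed normalized counts of 15 macrophage and monocyte markers (horizontal axes, from 0), 1 point per sample. The controls form a cluster at 3325 to 3787 on the horizontal axis and the labelled Sirt1-deleted samples lie at 6982 to 12820; replicate 10 of the latter is the lowest of its group on both axes in each panel.

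A cluster of 3 receptor genes lies on chromosome 1, apart from Pdcd1 on the same chromosome: Cd28 (ENSMUSG00000026012.2, chr1:60716800-60773359), Ctla4 (ENSMUSG00000026011.13, chr1:60887000-60915832) and Icos (ENSMUSG00000026009.14, chr1:60977927-61000320), all on the plus strand with 0 protein-coding genes between them. All 3 fell. Ctla4 overlaps the pseudogene Rpl18-ps1 and Icos overlaps Gm37039 in the annotation, and their values carry that uncertainty. Cd28 measured 5667, 5498, 5831, 5679 and 5351 normalized counts in labelled Sirt1-deleted replicates 7, 8, 10, 11 and 12, against 8634, 8091, 7362, 8455 and 7842 in control replicates 2 to 6. The gap between the groups was wider than the spread within either. The means were 5605 ± 185 and 8077 ± 505 (SD, n = 5 per group), and the log2 difference was -0.53 (SE 0.05, 95% interval -0.63 to -0.42; limma adjusted p = 7.84e-05). Relative to Cd3e of the same sample, Cd28 was 0.407 to 0.541 in the labelled Sirt1-deleted group against 0.615 to 0.728 in controls, without overlap.

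Icos measured 67.8, 76.2, 90.0, 107 and 80.6 normalized counts in labelled Sirt1-deleted replicates 7, 8, 10, 11 and 12, and 155, 134, 133, 140.4 and 105 in control replicates 2 to 6. Only replicate 11 of the former and replicate 6 of the latter met, at 107 and 105. The log2 difference of this costimulatory receptor was -0.67 (SE 0.15, 95% interval -0.997 to -0.334; limma adjusted p = 0.00605; exact two-sided permutation p = 0.0159), from 134 ± 18.1 to 84.2 ± 14.8 (SD, n = 5 per group). With an exact rank-sum test in place of limma the adjusted p was 0.0512. Icosl, which encodes the ICOS ligand, measured 183 ± 48.5 against 135 ± 22.1 and did not pass (a log2 difference of 0.41, 95% interval 0.01 to 0.81; limma adjusted p = 0.103), though it passed without labelled Sirt1-deleted replicate 10 (limma adjusted p = 0.0330).

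Ctla4 was low in every sample. It measured 14.8, 19.4, 33.7, 24.9 and 16.1 normalized counts in labelled Sirt1-deleted replicates 7, 8, 10, 11 and 12, and 34.3, 38.8, 27.6, 32.9 and 40.8 in control replicates 2 to 6. Replicate 10 of the labelled Sirt1-deleted samples lay among the controls, and the other 4 lay below every control. The log2 difference was -0.70 (SE 0.25, 95% interval -1.25 to -0.16; limma adjusted p = 0.0434; exact two-sided permutation p = 0.0238). This call is fragile: leaving out single samples ended it in 7 of 10 fits (labelled Sirt1-deleted replicates 7, 8 and 12 and control replicates 2, 3, 5 and 6), with limma adjusted p from 0.0114 to 0.103. Foxp3, the factor that defines regulatory T cells, in which CTLA-4, ICOS and TIGIT are abundant, measured 13.3 ± 3.29 against 13.4 ± 4.90 (SD, n = 5 per group, with a log2 difference of 0.03, 95% interval -0.65 to 0.72; limma adjusted p = 0.947). Of 6 tested regulatory T cell markers 1 passed, as lower (Il2ra), where 36.1% of all tested genes passed and 19.4% passed as lower. When single samples were left out, 0 to 2 passed as lower. The count was 0 without labelled Sirt1-deleted replicate 7, 8 or 12 or control replicate 2, 5 or 6. It was 2 without labelled Sirt1-deleted replicate 10 or control replicate 3. The summed level of all 7 listed markers, the untested Il10 included, was 910 to 1331 against 1319 to 1586. Il2ra and Tnfrsf18 also stand in other lists used here. The part of regulatory T cells in the falls of Ctla4 and Icos was not tested.

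The remaining inhibitory receptors did not pass. Lag3 (ENSMUSG00000030124.2, chr6:124904361-124911705, minus strand), a receptor for MHC class II molecules, measured 129, 125, 94.2, 148 and 149 normalized counts in labelled Sirt1-deleted replicates 7, 8, 10, 11 and 12, and 105, 134, 189.8, 178 and 114 in control replicates 2 to 6. The groups overlapped almost entirely (a log2 difference of -0.14, SE 0.19, 95% interval -0.55 to 0.27; limma adjusted p = 0.601; exact permutation p = 0.508). Its other ligands in the lists are Lgals3, a galectin of macrophages, which rose from 160 ± 24.0 to 369 ± 107 (SD, n = 5 per group, with a log2 difference of 1.16, SE 0.19; limma adjusted p = 0.00104), and Fgl1, which measured 14.4 ± 2.38 in controls and between 6.84 and 88.0 in the labelled Sirt1-deleted samples (limma adjusted p = 0.583). The high value of Fgl1 was that of replicate 10.

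Tigit (ENSMUSG00000071552.5, chr16:43648867-43664146, minus strand) measured 25.9, 36.1, 26.8, 36.3 and 25.9 normalized counts in labelled Sirt1-deleted replicates 7, 8, 10, 11 and 12, against 58.9, 34.7, 61.5, 38.5 and 29.7 in control replicates 2 to 6. Control replicates 2 and 4 were high and the other controls reached into the range of the labelled Sirt1-deleted samples. The log2 difference was -0.51 (SE 0.24, 95% interval -1.03 to 0.02; limma adjusted p = 0.118; exact permutation p = 0.0556), and after quantile normalization it passed as lower (-0.79; limma adjusted p = 0.0286). TIGIT shares ligands with the activating receptor CD226 and with CD96. Cd226 passed as higher (134 ± 14.3 against 98.6 ± 23.4, SD, n = 5 per group, with a log2 difference of 0.46, limma adjusted p = 0.0472), but it was not called in 8 of the 10 fits without 1 sample, each of those without a labelled Sirt1-deleted sample and those without control replicate 4, 5 or 6 (limma adjusted p from 0.0262 to 0.112 over the 10). Cd96 measured 510.2 ± 84.1 against 591 ± 51.6 (limma adjusted p = 0.131). The ligand gene Pvr measured 181 ± 38.7 against 132 ± 20.9 (a log2 difference of 0.44, limma adjusted p = 0.0583) and passed without labelled Sirt1-deleted replicate 10 (limma adjusted p = 0.00876), while Nectin2, at 15.7 ± 5.03 against 10.7 ± 4.57, did not pass (limma adjusted p = 0.256). No NK cell marker of 6 tested passed with limma (1 had an unadjusted p under 0.05), where 36.1% of all tested genes passed. With the exact rank-sum test 0 passed, and 1 passed with sample weights or without labelled Sirt1-deleted replicate 10. The summed level of 9 NK cell markers, the untested ones included, was mostly Gzma. It was 12672 to 17683 against 10262 to 15519, and Ncr1 was not analysed here.

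**Figure D4:**
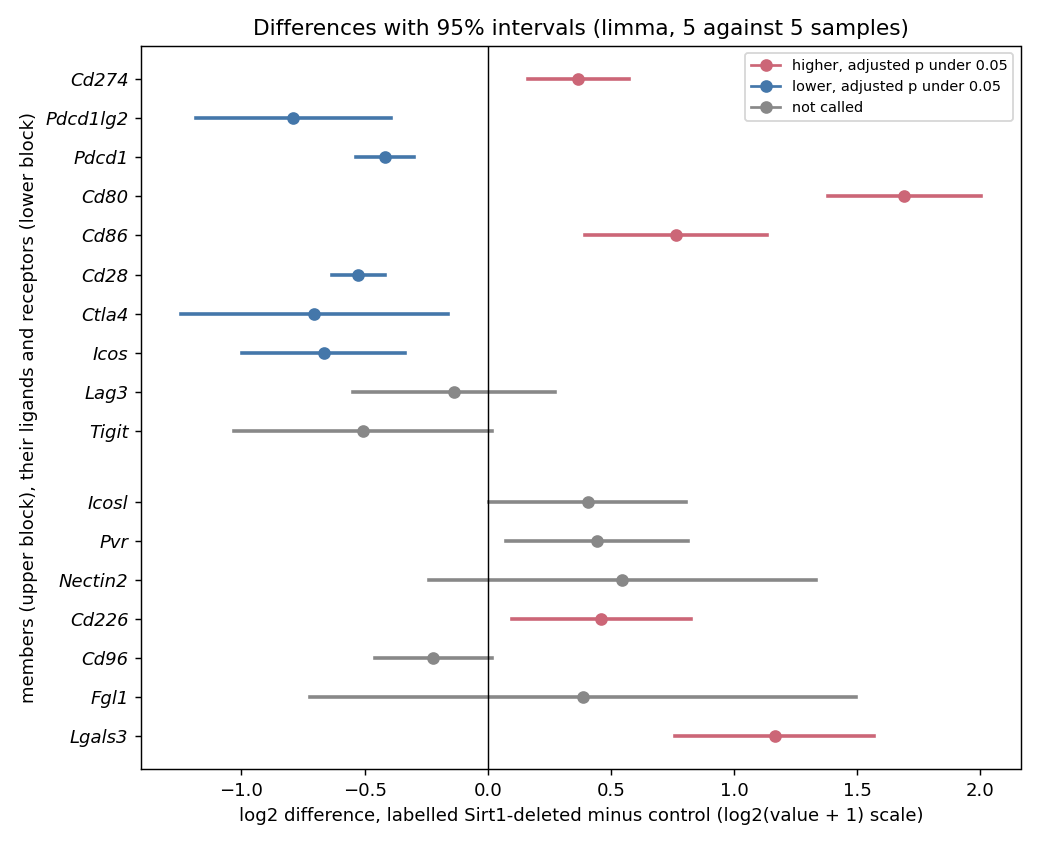
Log2 differences, labelled Sirt1-deleted minus control, on the log2(value + 1) scale (horizontal axis) with 95% intervals from limma for the 10 genes (upper block) and their direct ligands and receptors in the lists (lower block); red and blue mark genes past an adjusted p under 0.05 as higher and lower. Cd80 lies farthest to the right at 1.69 and Pdcd1lg2 farthest to the left at -0.79.

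Levels of different genes were compared per kb of the longest annotated coding transcript. In controls Cd28 stood highest at 1858 ± 116 normalized counts per kb, followed by Pdcd1 at 1043 ± 48.7 (SD, n = 5 per group). Lag3 at 72.0 ± 19.0 and Cd274 at 71.4 ± 4.33 were next and did not differ beyond their spread. Tigit (48.6 ± 15.8), Pdcd1lg2 (46.6 ± 11.8) and Icos (41.2 ± 5.59) likewise overlapped, Cd86 followed at 28.2 ± 2.60, and Ctla4 (18.04 ± 2.67) and Cd80 (17.2 ± 2.20) were lowest. In the labelled Sirt1-deleted samples Cd28 (1289 ± 42.5) and Pdcd1 (782 ± 42.3) remained the highest. Below them the order changed to Cd274 (92.5 ± 10.1), Lag3 (64.5 ± 11.1), Cd80 (56.4 ± 7.06) and Cd86 (49.1 ± 11.2), of which the neighbours from Lag3 down lay within their spreads. Tigit (32.9 ± 5.96), Pdcd1lg2 (26.1 ± 2.12) and Icos (26.0 ± 4.56) followed, the last 2 indistinguishable, and Ctla4 was lowest (11.3 ± 3.99).

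Within groups, some of these genes varied together from sample to sample. After the group means were removed, the Pearson correlation over the 10 samples was 0.83 for Pdcd1lg2 and Tigit, whose control replicates 2 and 4 were both high. It was 0.73 for Cd274 and Cd80, 0.69 for Cd274 and Cd86, 0.64 for Cd80 and Cd86, 0.63 for Lag3 and Cd86, and 0.61 for Pdcd1lg2 and Pdcd1. The lowest were -0.60 for Cd86 and Cd28, -0.59 for Cd80 and Cd28, and -0.59 for Lag3 and Ctla4. These values come from the same 10 libraries and describe them. Among the 8 genes called, labelled Sirt1-deleted replicate 10 was the sample of its group nearest to the controls for 5.

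The genes whose values followed each called gene most closely over the 10 samples (highest Pearson r among 10746 genes with a mean of at least 100, with all libraries shared) differed between the members. For Cd80 they were the interferon-induced genes Ifi27 (r = 0.990) and Oas1a (r = 0.985). Cd86 was followed by Elob (r = 0.974) and Lgals3 (r = 0.963), and Cd274 by Ccdc25 (r = 0.985) and Nol12 (r = 0.976). The nearest to Pdcd1lg2 were Eci2 (r = 0.977) and Cblb (r = 0.975), the latter encoding a ubiquitin ligase that restrains T cells lacking CD28 signals. Pdcd1 was followed by Dusp5 (r = 0.974) and Zfp606 (r = 0.971), and Cd28 by Ctif (r = 0.993) and Zik1 (r = 0.992). Ctla4 was followed by Prkci (r = 0.983) and Slc7a1 (r = 0.981), and Icos by Traf3ip1 (r = 0.975) and Ensa (r = 0.970). Differences between the groups enter these correlations.

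Beyond the 10 genes, 5 lists of related genes were read in the same fit. Of 24 tested other checkpoint receptors and ligands, 5 passed as higher and 2 as lower, with a median log2 difference of 0.40. The share that passed was below the 36.1% of all tested genes. Those higher were 3 without labelled Sirt1-deleted replicate 8 or control replicate 4 or 6, and those lower were 1 without labelled Sirt1-deleted replicate 8 or 12 or control replicate 2, 5 or 6. The largest change was in Sirpa, the myeloid receptor for the CD47 signal, which rose from 351 ± 31.8 to 887 ± 194 (SD, n = 5 per group, with a log2 difference of 1.31, SE 0.13; limma adjusted p = 1.06e-04). Cd200r1, the receptor for CD200, rose from 45.1 ± 13.02 to 77.5 ± 11.9 (a log2 difference of 0.81, limma adjusted p = 0.0130), and lost its call under quantile normalization. Havcr2, which encodes TIM-3, rose from 15.6 ± 3.75 to 25.9 ± 4.29 (a log2 difference of 0.71, limma adjusted p = 0.0372), a call lost in 6 of the 10 fits without 1 sample (labelled Sirt1-deleted replicates 7, 8 and 12 and control replicates 3, 4 and 6) and also at a minimum mean of 1, with no filter and after quantile normalization. Sirpa and Lgals3 are also expressed by the myeloid cells whose markers rose, and their part in these rises was not tested.

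Of 11 tested costimulatory ligands and receptors of the TNF family, 5 passed as higher and 2 as lower, with a median of 0.37, where 36.1% of all tested genes passed. Those higher were 3 without labelled Sirt1-deleted replicate 8 or control replicate 2 or 6. Those lower were 0 without control replicate 4, and 1 without labelled Sirt1-deleted replicate 11 or 12 or control replicate 2 or 3. Tnfsf4, the OX40 ligand of antigen-presenting cells, rose from 29.0 ± 7.73 to 114 ± 28.5 (SD, n = 5 per group, with a log2 difference of 1.94, SE 0.24; limma adjusted p = 3.03e-04), and its receptor gene Tnfrsf4 rose from 69.2 ± 13.8 to 102 ± 17.3 (a log2 difference of 0.56; limma adjusted p = 0.0234). Tnfrsf25 rose from 7.52 ± 3.66 to 25.5 ± 8.60 (a log2 difference of 1.72, limma adjusted p = 0.00472). Cd40, the receptor through which T cells activate antigen-presenting cells, rose from 21.8 ± 7.32 to 45.1 ± 11.5 (a log2 difference of 1.03, limma adjusted p = 0.0112), and its ligand gene Cd40lg rose from 6.95 ± 5.01 to 17.0 ± 5.56 (a log2 difference of 1.32, limma adjusted p = 0.0260). Tnfrsf25 and Cd40lg had control means below the minimum of 10 and so entered the test only through the group in which they were higher. The count of 5 higher and the median of 0.37 include both. The calls of Cd40lg and Tnfrsf4 were lost in 5 and 3 of the 10 fits without 1 sample: both without labelled Sirt1-deleted replicate 8 or control replicate 2 or 6, and Cd40lg also without labelled Sirt1-deleted replicate 12 or control replicate 5. Both were lost after quantile normalization, and both, like that of Cd40, with the exact rank-sum test.

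Of 20 tested signalling genes that act next to the receptors, 3 passed as higher (5 without labelled Sirt1-deleted replicate 10) and 7 as lower, with a median of -0.09. The share of all tested genes that passed was 36.1%. Pik3r1, a regulatory subunit of the PI3-kinase that CD28 and ICOS recruit, fell from 5826 ± 948 to 3981 ± 250.3 (SD, n = 5 per group, with a log2 difference of -0.54, SE 0.09; limma adjusted p = 0.00153). Cblb fell from 3029 ± 266 to 2295 ± 153 (a log2 difference of -0.40, limma adjusted p = 0.00140), and the adaptor gene Grap2 from 4579 ± 236 to 3639 ± 397 (a log2 difference of -0.34, limma adjusted p = 0.00489). The adaptor genes Lat (a log2 difference of 0.35, limma adjusted p = 0.00472) and Trat1 (0.46, limma adjusted p = 0.0109) and the exchange factor gene Vav1 (0.33, limma adjusted p = 0.0116) rose.

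Of 16 genes known to act on PD-L1 expression, 13 passed, 6 as higher and 7 as lower, with a median of -0.10. Among all tested genes 36.1% passed. The interferon signalling genes Irf9 (a log2 difference of 1.04, limma adjusted p = 2.96e-04) and Stat2 (0.40, limma adjusted p = 0.00573) rose, as did the feedback inhibitor gene Socs1 (0.49, limma adjusted p = 0.00906). The receptor gene Ifngr1 fell from 1984.5 ± 126 to 1485 ± 34.01 (SD, n = 5 per group, with a log2 difference of -0.42, SE 0.05; limma adjusted p = 3.90e-04), and the kinase gene Jak2 fell by 0.45 on the log2 scale (limma adjusted p = 0.00163). Of the genes named here, the receptor and kinase genes fell, whereas Irf9, Stat2 and Socs1 rose.

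Of 18 tested genes of T cell activation and exhaustion, 4 passed as higher and 5 as lower (3 lower without labelled Sirt1-deleted replicate 7 or control replicate 2), with a median of -0.01. For all tested genes the share that passed was 36.1%. Nr4a1, an immediate early gene of antigen receptor signalling, fell from 2559.9 ± 331 to 1574 ± 140.1 (SD, n = 5 per group, with a log2 difference of -0.70, SE 0.09; limma adjusted p = 3.87e-04), and its relative Nr4a3 from 65.4 ± 15.3 to 37.4 ± 12.5 (a log2 difference of -0.83, limma adjusted p = 0.0236). Il2ra, the alpha chain of the interleukin 2 receptor, was lower at 286 ± 134 against 438 ± 58.7 (a log2 difference of -0.73, limma adjusted p = 0.0415; exact permutation p = 0.0714). Maf rose from 140.4 ± 24.3 to 312 ± 32.8 (a log2 difference of 1.16, limma adjusted p = 2.80e-04), and Batf3, a factor also of dendritic cells, from 19.0 ± 3.96 to 34.2 ± 8.35 (a log2 difference of 0.81, limma adjusted p = 0.0212). Without 1 sample the call was lost in 7 of 10 fits for Il2ra (labelled Sirt1-deleted replicates 7, 8 and 12, control replicates 2, 3, 5 and 6), in 2 for Nr4a3 (labelled Sirt1-deleted replicate 7, control replicate 2) and in 2 for Batf3 (labelled Sirt1-deleted replicate 12, control replicate 2). Of 14 T lineage markers 2 passed as higher (4 without labelled Sirt1-deleted replicate 10) and 4 as lower; Cd4 measured 3934 ± 727 against 4361 ± 105 (limma adjusted p = 0.227) and Cd8a 2488 ± 638 against 2935 ± 371 (limma adjusted p = 0.164), and Cd8a passed as lower without labelled Sirt1-deleted replicate 11 (limma adjusted p = 0.0126).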

How the data were processed

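RNA was sequenced from 10 leukemic spleens, 5 labelled Sirt1-deleted and 5 control by the genotype label, numbered as in their titles. Cells were pressed through a filter, red cells were lysed, and strand-specific libraries were made from total RNA, per the labels' protocols. The deposited values are a signal, gene counts that the authors divided by DESeq normalization factors, per the file name. The submitters' processing notes name kallisto 0.44.0, DESeq and mm10; the annotation, the gene filter and the strand setting are not given in the sources used here. A whole multiple of what 1 read is worth was met within 0.1 by 62.8% (lowest sample) to 73.9% (highest sample) of the values up to 8.5 reads, so whole reads were not recovered, no count test was run and no counting intervals are given.

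The log2(value + 1) of 15276 genes with a mean of at least 10 was tested with limma 3.58.1 in R 4.3.3 (group as the only term, intensity trend), with Benjamini-Hochberg adjustment over all tested genes, after a check on simulated data. Log2 differences are on that scale and understate changes of low genes. Single genes were also compared by the exact two-sided permutation test over 252 assignments. Gene positions came from GENCODE M21 and sequences from RefSeq (GRCm38.p6), both of the build mm10 names. The members and lists were chosen with earlier results of these data known, so no list was tested. Other genes named were those past the threshold among the 6 largest changes of each of 5 lists, direct ligands and receptors, defining markers, and the 2 genes most like each called member. The values of 2 genes that this rule takes are not reported here. Alternatives covered the pseudocount (0.1 and 5), the filter (none, or a minimum mean of 1 or 50), the scaling (upper-quartile, quantile), the model (sample weights, no trend), the test (exact rank-sum), the threshold (0.01) and leaving out samples. Vtcn1, Vsig4, Cd70, Ncr1 and Clec4f were not analysed here. The table held 0 columns of other samples.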

Additional observations from a re-analysis of the deposited data

Results flagged for a closer look

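For each named gene and group, a set of 5 values, the distance of the highest or lowest sample from the next value was taken as a ratio to the whole range, with 0.71 as the critical value. Of 106 sets 6 exceeded it, where chance at 1 in 20 gives 5.3. Among the 10 genes the only such set was Cd80, for which labelled Sirt1-deleted replicate 10 was far below its group, at 139 normalized counts against 184 to 192 (ratio 0.843). The same sample was far below its group for Irf9, at 1879 against 2638 to 2944 (ratio 0.713), and far above it for Fgl1, at 88.0 against 6.84 to 16.3 (ratio 0.883). Labelled Sirt1-deleted replicate 8 was the highest of its group for Trat1, at 1348 against 906 to 1010 (ratio 0.764). Control replicate 2 was the lowest control for Lat, at 15564 against 18257 to 19145 (ratio 0.752), and for Maf, at 98.7 against 146 to 162 (ratio 0.740).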

How the results depend on the processing

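No paired analysis was possible because no replicate number occurs in both groups. No alternative run turned the sign of any of the 10 genes or of Sirt1. Tigit and Ctla4 had no value at a minimum mean of 50, which they did not reach. Pdcd1lg2, Pdcd1, Cd80, Cd86 and Cd28 kept their calls under every alternative run. Cd274 lost its call at a threshold of 0.01 (0.368) and Icos with the exact rank-sum test (-0.665), with unchanged differences. Ctla4 lost its call at a minimum mean of 1 and with no filter (-0.703 in each), and after upper-quartile rescaling (-0.647). It also lost its call with the exact rank-sum test and at a threshold of 0.01 (-0.703 in each). Without 1 sample its difference ranged from -0.870 to -0.587. Over the alternatives that kept all samples, limma adjusted p of Ctla4 was 0.0128 to 0.0586. The exact rank-sum test gave Ctla4 an adjusted p of 0.0823. Tigit passed after quantile normalization (-0.786). The number of the 10 genes called lower fell to 3 with the rank-sum test, which gives its smallest p only to groups without overlap, and was 4 to 6 otherwise. The 5 lists together had 23 genes called higher and 23 lower; the rank-sum test gave 10 higher and the threshold of 0.01 gave 10 higher and 14 lower. Over all tested genes the rank-sum test called 3659 and the threshold of 0.01 called 2850, against 5518. Of 30 other genes named as called, 23 were called in each fit without 1 sample. Of these 30, the rank-sum test did not call Cd40, Cd40lg, Tnfrsf4, Trat1, Vav1, Socs1, Stat2, Nr4a3, Batf3, Il2ra, Cd226, Itgax and Csf1r, and quantile normalization did not call Cd200r1, Havcr2, Cd40lg, Tnfrsf4, Batf3, Cd226 and Itgax. Scaling moved single lists by over 1.5 times. Upper-quartile rescaling gave 8 other checkpoint genes called higher against 5, 5 signalling genes higher against 3, 4 T lineage markers higher against 2, and 0 TNF family genes and 0 regulatory T cell markers lower against 2 and 1. Quantile normalization gave 3 other checkpoint and 3 TNF family genes higher against 5 each, 1 dendritic cell marker higher against 4 and 1 TNF family gene lower against 2. Why these counts moved was not tested. Without labelled Sirt1-deleted replicates 10 and 11, other checkpoint genes called were 8 higher and 4 lower, where calls over all tested genes rose to 6937.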
